A study of Mus musculus with 4 samples.

Results

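General mRNA decay genes encode the enzymes that shorten the poly(A) tail, remove the cap and digest the body of a transcript. The 41 genes described here were chosen by symbol from these machineries, and all 41 were found among the 37224 gene identifiers of the count tables. They were sorted into 9 groups by role: 7 subunits of the CCR4-NOT deadenylase, 3 genes of the PAN2-PAN3 and PARN deadenylases, 6 decapping genes, 7 genes of the LSM ring, 2 exonucleases that work from the 5′ end, 8 core genes of the RNA exosome, 4 exonucleases that work from the 3′ end, 2 genes of the Ski complex and 2 genes of no-go decay. The samples were mouse embryonic stem (ES) cells, pluripotent cells grown from the early embryo, in 2 genotypes: wild type and Smg6-deficient, with 2 RNA-seq libraries each. The labels gave neither the allele, the strain, the line, the culture conditions nor the way in which Smg6 was removed, and did not say whether libraries of 1 genotype came from separate cultures or lines. The p-values therefore rest on the spread among these 4 libraries alone, and that spread may be technical.

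In bulk mRNA decay, deadenylation usually comes first; the body is then degraded either from the 5′ end, after decapping, by Xrn1, or from the 3′ end by the RNA exosome. Smg6 cleaves the targets of nonsense-mediated decay (NMD), the pathway that removes transcripts with a stop codon in a premature context. The fragments are known to be cleared by Xrn1 and by the exosome, and other NMD factors recruit the deadenylation and decapping enzymes to the same targets. The comparison asks whether the mRNA levels of these enzymes differ between cells with and without normal Smg6.

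The libraries held 130888768 to 155391181 counted reads. Smg6 itself was counted 13396 and 14071 times in wild-type cells and 13366 and 11642 times in Smg6-deficient cells, or 95.7 and 105 against 87.6 and 86.2 CPM (per-million counts after TMM scaling of the library). This difference, -0.21 on the log2 scale (SE 0.083), missed the threshold (edgeR adjusted p = 0.089); it passed with the gene length correction (-0.37, edgeR adjusted p = 0.0068), with library size alone (-0.27, edgeR adjusted p = 0.044) and without wild-type replicate 1 (-0.26, edgeR adjusted p = 0.015). Because reads were summed over the gene, a deletion of part of it could go unseen, so the value does not check the labels. All 10 listed ES cell markers passed the filter on low counts, with summed levels of 4144 and 3491 CPM in wild-type and 3072 and 3034 CPM in Smg6-deficient cells; 2 of them were higher and 5 lower. All 10 listed markers of extraembryonic endoderm were higher in Smg6-deficient cells, with summed levels of 323 and 274 against 1567 and 2467 CPM. Of 10 fibroblast markers, 3 were higher and 0 lower, at 1025 and 763 against 1259 and 1150 CPM. No marker of the 3 lists was at 0 in all libraries, and the part of other cell types in the results below was not tested. In bulk RNA, fewer cells of a type and less RNA per cell cannot be told apart.

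Of the 41 decay genes, 10 were higher in Smg6-deficient cells, 8 were lower and 23 did not pass the threshold (edgeR quasi-likelihood test, Benjamini-Hochberg adjusted p under 0.05 over 20895 genes). All 41 passed the filter on low counts. The share of decay genes called, 43.9%, lay close to the 39.7% of all tested genes. In the higher direction it was 24.4% against 20.5%, and in the lower direction 19.5% against 19.2%, so the count does not set these genes apart from the transcriptome. The changes were small: log2 fold changes (Smg6-deficient over wild type) ran from -0.74 to 0.86 with a median of 0.16, against 0.01 for all tested genes, and 0 of the 41 genes changed at least 2-fold, while 13.5% of all tested genes did so and passed. The libraries of the genotypes did not overlap in 33 of the 41 genes, or 80.5%, against 73.2% of all tested genes; the 8 with overlap were Cnot2, Edc3, Lsm1, Lsm7, Exosc3, Exosc7, Exosc8 and Exosc9. None of the 41 genes lies on a sex chromosome. Of the 18 calls, 8 were kept in all 13 alternative analyses: those of Skiv2l, Pan3, Pan2, Edc4, Xrn1 and Exosc10, which rose, and of Cnot6l and Cnot8, which fell. The number of lower genes was 2 without Smg6-deficient replicate 2 and 5 without Smg6-deficient replicate 1.

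**Figure D1:**
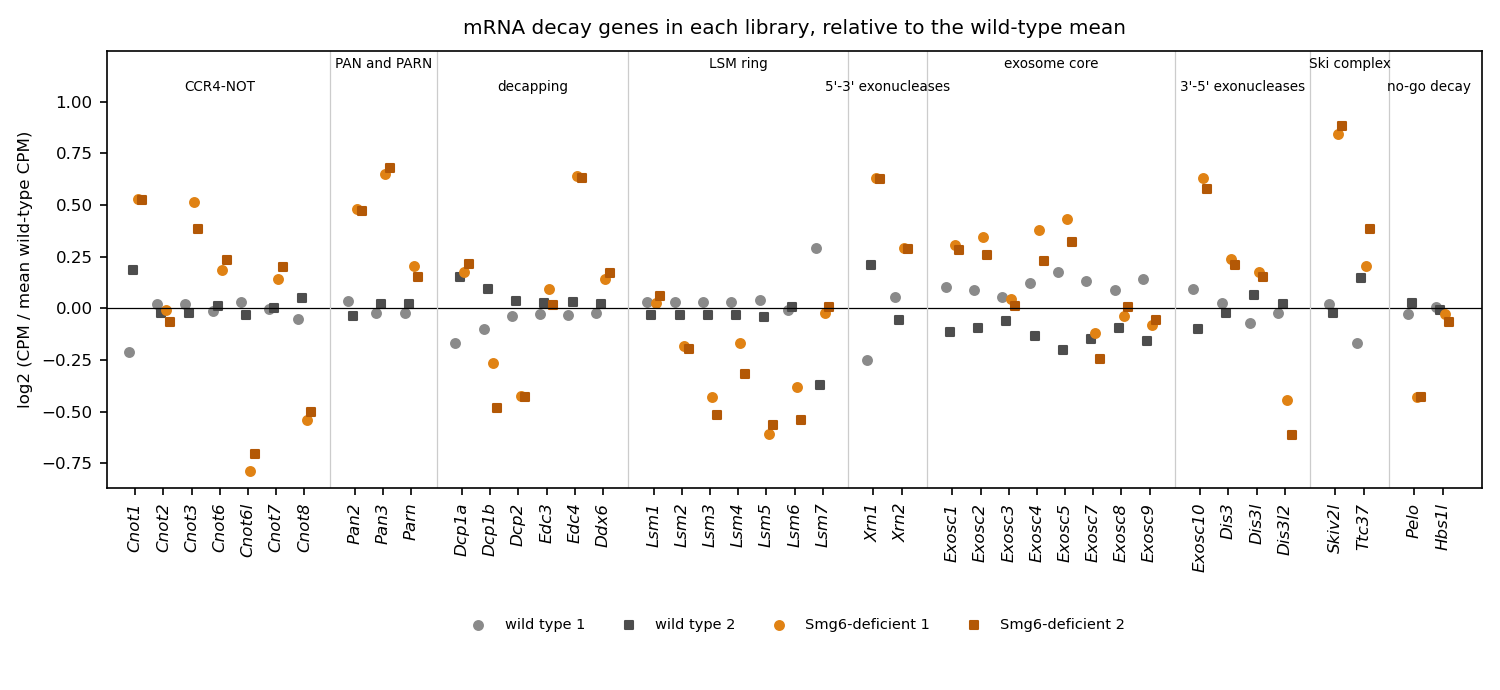
Level of each of the 41 genes in each library, as log2 of its CPM over the mean wild-type CPM, ordered by role; grey symbols are the 2 wild-type and orange symbols the 2 Smg6-deficient libraries. Skiv2l, Pan3, Edc4, Xrn1 and Exosc10 lie above and Cnot6l and Cnot8 below the wild-type libraries, while the wild-type libraries stand apart from each other for Cnot1, Xrn1 and the exosome core.

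A property that the choice of genes did not use is whether the annotation (GENCODE M21, GRCm38) lists a transcript of the gene as an NMD substrate. Such a transcript was listed for 21 of the 41 genes, 32 transcripts in all, and in all 32 the last exon junction lay more than 50 nt after the stop codon (60 to 2316 nt). That distance is part of the rule by which such transcripts are annotated, so it is no separate evidence that they decay. The stop codons below are those of the genes with the largest rise and the largest fall, and of the 3 called genes in which the stop lies in an exon that does not overlap any exon of the principal transcript. Each is shown in 30 bases of the annotated transcript, 5′ to 3′, with the stop codon in capitals.
Skiv2l-205: tggatgagcccagcaTAActgatctgcata
Cnot6l-201: tcggagtgcggagctTAAgtacatcactct
Pan3-216: gttcatgaaacagacTGAttcgactaaagg
Exosc10-205: ctgtgtcaccaaggaTGAccctgaagttag
Dis3l2-206: gatcagtggaagtctTGAaatacagcctat
The stop of Skiv2l-205 begins at position 34847800 of chromosome 17 (minus strand), 416 nt before the last junction, and that of Cnot6l-201 at position 96131230 of chromosome 5 (minus strand), 1310 nt before it. In Pan3-216 the stop begins at position 147503150 of chromosome 5 (plus strand) in an exon of 118 nt, shared with transcript Pan3-208, and lies 1573 nt before the last junction. In Exosc10-205 it begins at position 148563618 of chromosome 4 (plus strand) in an exon of 110 nt, and in Dis3l2-206 at position 86812515 of chromosome 1 (plus strand) in an exon of 78 nt. The annotation marks the coding start of Pan3-216, Pan3-208 and Exosc10-205 as not found, so the reading frame that gives their stops is less certain. The deposited counts are per gene, so the level of these transcripts was not measured.

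Among the 21 genes with an annotated NMD transcript, 7 rose and 3 fell, with a median log2 fold change of 0.23. Among the 20 genes without one, 3 rose and 5 fell, with a median of -0.03. Over all tested coding genes, 33.3% of the 4152 with such a transcript were higher and 14.6% lower, against 20.7% and 22.3% of the 12303 without, and the medians were 0.15 and 0.00367. The decay genes with an NMD transcript thus divided in nearly the same shares, 33.3% higher and 14.3% lower, as coding genes with one. The 7 that rose were Skiv2l, Pan3, Edc4, Exosc10, Cnot1, Cnot3 and Exosc2, and the 3 that fell were Cnot6l, Lsm5 and Dis3l2.

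**Figure D2:**
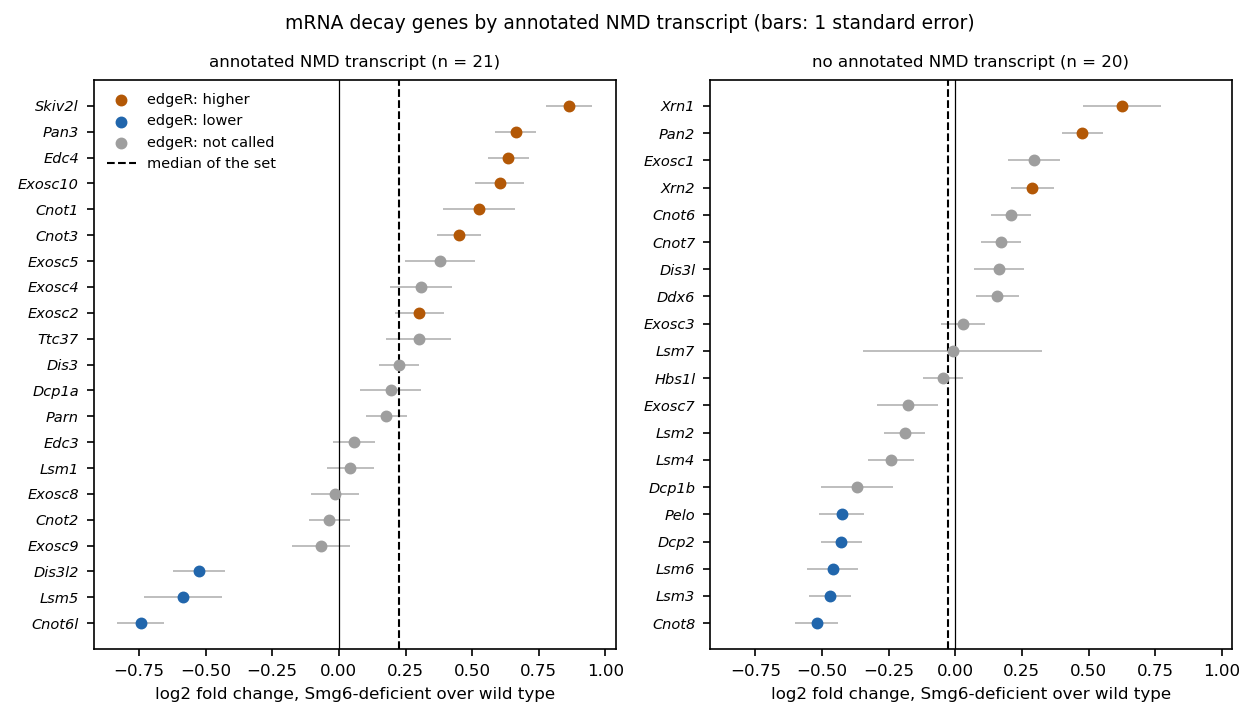
Fitted log2 fold change of each gene with its standard error, sorted, for the 21 genes with and the 20 genes without an annotated NMD transcript; colours give the edgeR call and the dashed line the median of the set. The medians are 0.23 and -0.03, and both sets hold genes called in each direction.

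The deadenylases were divided. The CCR4-NOT complex, the main cytoplasmic deadenylase, is built on the scaffold Cnot1, with a NOT module of Cnot2 and Cnot3 and catalytic subunits from the pairs Cnot6 or Cnot6l and Cnot7 or Cnot8. Of its 7 genes, 2 rose and 2 fell, with a median log2 fold change of 0.17 and a range from -0.74 to 0.53. Both genes that rose encode noncatalytic subunits and both that fell encode catalytic subunits.

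Cnot1 (ENSMUSG00000036550; chromosome 8, 95719451 to 95807464, minus strand) stood at 509 CPM in wild-type replicate 1, 669 CPM in wild-type replicate 2, and 851 and 846 CPM in the Smg6-deficient libraries. The groups did not overlap, but the wild-type libraries lay far apart, replicate 2 standing nearer to the Smg6-deficient level. Its log2 fold change was 0.53 (SE 0.13, edgeR adjusted p = 0.021), and it did not pass in limma-trend on log2(RPKM + 1) (0.49, limma adjusted p = 0.052).

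Cnot3 (chromosome 7, 3645268 to 3661109) stood at 113 and 109.9 CPM in wild-type and 159 and 145 CPM in Smg6-deficient libraries, a log2 fold change of 0.45 (SE 0.083, edgeR adjusted p = 0.0065). The call was lost when Smg6-deficient replicate 1 was left out (0.39, edgeR adjusted p = 0.071) and in limma-trend on log2(RPKM + 1) (0.39, limma adjusted p = 0.053). Its transcript shares 12.1% of its 50-base words with Leng1, a gene on the opposite strand whose own log2 fold change was 0.49, and 21.6% with the processed pseudogene Gm9207; the library kit did not mark strand, and the part of shared reads in the value was not tested. Cnot2 did not pass, at 129.8 ± 2.91 and 127 ± 3.81 CPM (mean ± SD, n = 2 per genotype throughout).

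Cnot6l (ENSMUSG00000034724; chromosome 5, 96070333 to 96164171, minus strand), a catalytic subunit of the nuclease family typified by yeast Ccr4, had the largest fall of the 41 genes. It stood at 42.1 and 40.3 CPM in the wild-type and 23.9 and 25.3 CPM in the Smg6-deficient libraries. The fall was 1.67-fold (log2 fold change -0.74 with SE 0.087, edgeR adjusted p = 0.0013), and both Smg6-deficient libraries lay well below both wild-type libraries. Its paralog Cnot6, with the same activity, had a log2 fold change of 0.21, short of the threshold (173 and 176 against 199 and 205 CPM, edgeR adjusted p = 0.067). Cnot6 passed without either wild-type library, with log2 fold changes of 0.21 and 0.20 (edgeR adjusted p = 0.036 and 0.047).

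Cnot8 (chromosome 11, 58104153 to 58118594), a catalytic subunit of the Caf1 type, stood at 97.8 and 105 CPM in wild-type and 69.9 and 71.7 CPM in Smg6-deficient libraries (log2 fold change -0.52 with SE 0.080, edgeR adjusted p = 0.0033). Its paralog Cnot7 did not pass (0.17, edgeR adjusted p = 0.11), at 122 and 123 against 135 and 141 CPM. The groups did not overlap in either gene, and they lay in opposite order.

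Levels per length allow the paralogs to be set against each other. Cnot6l made up 13.5% and 12.8% of the combined RPKM (reads per kilobase of gene, scaled to the library total by the authors) of Cnot6 and Cnot6l in wild-type cells, and 7.17% and 7.31% in Smg6-deficient cells. The sum itself was 26.2 ± 1.01 and 27.5 ± 0.375 RPKM. Cnot8 made up 63.9% and 65.4% of the sum of Cnot7 and Cnot8 in wild-type cells, and 53.3% and 52.9% in Smg6-deficient cells, while that sum was 51.2 ± 0.544 and 42.2 ± 0.643 RPKM. In both pairs the shares did not overlap between genotypes, though an exact permutation test of 2 against 2 libraries cannot give a two-sided p below 0.33. The share of Dcp1b, the lesser decapping activator, was 6.29% ± 0.379 and 4.33% ± 0.535 of the Dcp1a and Dcp1b sum. The share of Dis3l beside Dis3 was 11.0% ± 0.879 and 10.6% ± 0.0462, with overlapping libraries. That of Xrn2 beside Xrn1 was 82.5% ± 4.04 and 78.9% ± 0.0023, the wild-type libraries standing at 85.4% and 79.7%; the difference of -3.62 percentage points became -0.761 without wild-type replicate 1 and -6.48 without wild-type replicate 2.

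**Figure D3:**
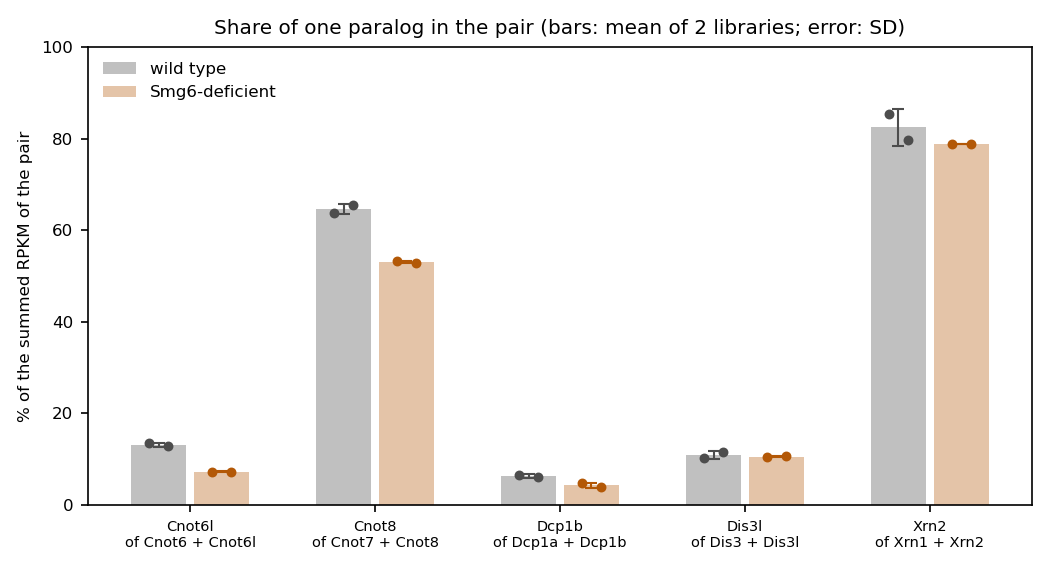
Percentage of the summed RPKM of 5 paralog pairs that is contributed by the gene named above each pair; bars are means of 2 libraries, points the libraries and error bars the SD. Cnot6l falls from 13.1% to 7.24% and Cnot8 from 64.6% to 53.1%, while Dis3l stays near 11.0% and 10.6%.

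Of the 3 other deadenylase genes, 2 rose. Pan3 (chromosome 5, 147430161 to 147548502), the adaptor that brings the PAN2 nuclease to poly(A)-binding protein, stood at 50.3 and 51.7 CPM in wild-type and 79.9 and 81.8 CPM in Smg6-deficient libraries (log2 fold change 0.66 with SE 0.077, edgeR adjusted p = 0.0012). Pan2 (chromosome 10, 128303335 to 128321358), the nuclease of that complex, rose from 68.0 and 64.6 to 92.5 and 92.0 CPM (0.48, SE 0.077, edgeR adjusted p = 0.0040). In both genes the replicates lay closer to each other than to any library of the other genotype. Parn, a poly(A)-specific ribonuclease with known roles in the maturation of small RNAs, was at 0.18 and did not pass (89.9 ± 1.89 and 102 ± 2.71 CPM, edgeR adjusted p = 0.11).

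Of the 6 decapping genes, 1 rose and 1 fell, and the median was 0.11. Edc4 (chromosome 8, 105880881 to 105894908), the scaffold that joins the decapping enzyme to its activators, stood at 114 and 119 CPM in wild-type cells and at 181 CPM in both Smg6-deficient libraries (log2 fold change 0.64 with SE 0.076, edgeR adjusted p = 0.0013). Dcp2 (chromosome 18, 44380502 to 44424969), the enzyme that removes the cap, fell from 255 and 267 to 195 and 194 CPM (-0.43, SE 0.078, edgeR adjusted p = 0.0062). The genotypes did not overlap, but the call of Dcp2 did not survive the omission of Smg6-deficient replicate 1 or 2. Its log2 fold change was then -0.42 and -0.41, close to the value with all libraries. Calls over all tested genes were also fewer without either of these libraries.

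The remaining decapping genes did not pass. Dcp1a, an activator of Dcp2, stood at 117 and 146 CPM in the wild-type libraries and 149 and 153 CPM in the Smg6-deficient ones (log2 fold change 0.19, edgeR adjusted p = 0.22); it passed without wild-type replicate 2 (0.34, edgeR adjusted p = 0.0051) and was at 0.06 without wild-type replicate 1 (edgeR adjusted p = 0.52). Dcp1b was the second least abundant of the 41 genes per length, at 1.34 RPKM in wild-type cells, with a log2 fold change of -0.37 (9.27 and 10.6 against 8.25 and 7.11 CPM, edgeR adjusted p = 0.069), and passed without wild-type replicate 1 (-0.45, edgeR adjusted p = 0.021). The helicase Ddx6, which links translational repression to decapping, was the most abundant decapping gene per length, at 52.6 ± 1.24 RPKM in wild-type cells, and had a log2 fold change of 0.16 (edgeR adjusted p = 0.16). Edc3, an enhancer of decapping, was at 0.06 with overlapping libraries (94.7 ± 2.54 and 98.5 ± 3.86 CPM).

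The LSM ring, which binds the 3′ ends of deadenylated transcripts and promotes decapping, had a median of -0.24, with 3 of 7 genes lower and 0 higher. Lsm3 stood at 97.0 and 92.9 CPM in wild-type and 70.5 and 66.4 CPM in Smg6-deficient libraries (log2 fold change -0.47 with SE 0.080, edgeR adjusted p = 0.0047). Lsm6 fell from 31.0 and 31.4 to 23.96 and 21.4 CPM (-0.46, SE 0.096, edgeR adjusted p = 0.010). Lsm5 fell from 4.31 and 4.07 to 2.75 and 2.84 CPM (-0.58, SE 0.15, edgeR adjusted p = 0.020). The libraries of the genotypes did not overlap in any of these 3 genes. All 3 calls were lost when Smg6-deficient replicate 2 was left out (log2 fold change -0.42 for Lsm3, -0.37 for Lsm6 and -0.59 for Lsm5). That of Lsm5 was also lost without Smg6-deficient replicate 1 (-0.55).

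Lsm4 and Lsm2 had log2 fold changes of -0.24 and -0.19 that did not pass (edgeR adjusted p = 0.065 and 0.094), again with libraries that did not overlap, and both passed without wild-type replicate 2 (edgeR adjusted p = 0.020 and 0.027). Without Smg6-deficient replicate 2, Lsm4 was at -0.16 (edgeR adjusted p = 0.53). Lsm1, the subunit that sets the cytoplasmic ring apart from the nuclear ring on U6 RNA, stood at 26.0 and 24.9 against 26.0 and 26.5 CPM, with overlapping libraries. Lsm7 was not measurable in the same way: it had 0.343 and 0.217 CPM in wild-type and 0.275 and 0.281 CPM in Smg6-deficient libraries (log2 fold change -0.01, SE 0.34).

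Ring subunits are thought to be present in equal numbers, yet their deposited levels in wild-type cells ran from 96.2 ± 7.01 RPKM for Lsm4 to 0.52 ± 0.184 RPKM for Lsm7, the highest and the lowest of all 41 genes. Lsm7 shares 62.1% of the 50-base words of its transcript with the processed pseudogene Gm10146, which had 1200 and 962 counts in the wild-type and 1252 and 1049 in the Smg6-deficient libraries. Lsm5, at 4.67 RPKM, shares 39.3% with the processed pseudogene Gm7846, which had 1008 and 890 against 618 and 552 counts and a log2 fold change of -0.77 (edgeR adjusted p = 0.0049). Reads were 50 nt long, so a read from such a stretch has more than 1 origin, and the treatment of these reads by the authors is not given in the sources used here. How reads were divided between gene and copy was not tested, and the levels of Lsm7 and Lsm5 are uncertain to that extent. Of the 41 genes, 18 share no such word with another annotated gene and 6 share more than 20% (Cnot3, Edc3, Lsm5, Lsm7, Pelo and Hbs1l).

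Both exonucleases that work from the 5′ end were higher. Xrn1 (ENSMUSG00000032410; chromosome 9, 95954760 to 96057803), the cytoplasmic enzyme that digests decapped mRNA, stood at 43.5 and 59.9 CPM in wild-type and 79.9 and 79.6 CPM in Smg6-deficient libraries. As for Cnot1, wild-type replicate 1 lay far below replicate 2, and the genotypes did not overlap. Its log2 fold change was 0.63 (SE 0.15, edgeR adjusted p = 0.016), and the call was kept without either wild-type library. Xrn2 (chromosome 2, 147012996 to 147078000), the nuclear enzyme with a role in transcription termination, rose from 184 and 169.6 to 216 and 215 CPM (0.29, SE 0.081, edgeR adjusted p = 0.029). The call of Xrn2 was kept in 5 of 13 alternatives. Among others it was lost on omitting either Smg6-deficient library (log2 fold changes 0.30 and 0.30) and with the gene length correction (0.21, edgeR adjusted p = 0.052).

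The RNA exosome is a barrel that threads RNA to its nucleases. Of the 8 core genes, only Exosc2, an RNA-binding cap subunit, passed: 91.7 and 80.6 against 109 and 103 CPM (log2 fold change 0.30 with SE 0.093, edgeR adjusted p = 0.040). This call was kept in 5 of 13 alternatives and was lost, among others, without wild-type replicate 2 (0.19, edgeR adjusted p = 0.069) and without Smg6-deficient replicate 1 (0.27, edgeR adjusted p = 0.24) or 2 (0.36, edgeR adjusted p = 0.11). The other cap subunits, Exosc1 and Exosc3, were at 0.30 and 0.03 (edgeR adjusted p = 0.051 and 0.81). Of the ring subunits, Exosc5 and Exosc4 were at 0.38 and 0.31 (edgeR adjusted p = 0.059 and 0.077) and Exosc7, Exosc8 and Exosc9 at -0.18, -0.01 and -0.07.

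Across this complex the replicates of the wild type stood apart. All 8 core genes were higher in wild-type replicate 1 than in replicate 2, by a median log2 ratio of 0.24, against 0.000183 over all tested genes, and between the Smg6-deficient replicates the same median ratio was 0.06. Exosc5 stood at 52.6 and 40.5 CPM in wild-type cells and 62.9 and 58.1 CPM in the Smg6-deficient ones. Without wild-type replicate 1, the median log2 fold change of the 8 genes was 0.26, and without wild-type replicate 2 it was 0.06, against 0.16 with all libraries. Exosc1, Exosc4 and Exosc5 passed without wild-type replicate 1 (edgeR adjusted p = 0.0028, 0.0063 and 0.00062) and were at 0.17, 0.17 and 0.18 without wild-type replicate 2 (edgeR adjusted p = 0.11, 0.20 and 0.11). Exosc7 and Exosc9 passed as lower without wild-type replicate 2 (-0.33 and -0.23, edgeR adjusted p = 0.012 and 0.029), while without wild-type replicate 1 they were at -0.02 and 0.10 (edgeR adjusted p = 0.89 and 0.26), so the sign of Exosc9 turned with the wild-type library kept. Exosc4 shares 385 exonic bases with Oplah on the opposite strand, which had a log2 fold change of 1.01.

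The nucleases that work from the 3′ end moved in both directions. Exosc10 (chromosome 4, 148558429 to 148582401), the nuclear nuclease bound to the exosome, stood at 112 and 97.7 CPM in wild-type and 162 and 156 CPM in Smg6-deficient libraries (log2 fold change 0.60 with SE 0.092, edgeR adjusted p = 0.0032). Dis3l2 (chromosome 1, 86703808 to 87050095), which degrades uridylated RNA without the exosome, fell from 34.6 and 35.6 to 25.8 and 23.0 CPM (-0.52, SE 0.096, edgeR adjusted p = 0.0063). The genotypes did not overlap in either gene, and the call of Dis3l2 was lost when Smg6-deficient replicate 2 was left out (-0.43, edgeR adjusted p = 0.067).

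Dis3, the catalytic subunit of the nuclear exosome, had a log2 fold change of 0.23 just outside the threshold (149 and 144 against 173 and 169 CPM, edgeR adjusted p = 0.053), and passed without wild-type replicate 1 (0.26, edgeR adjusted p = 0.013). Its cytoplasmic relative Dis3l was at 0.16 (26.4 ± 1.77 and 29.6 ± 0.307 CPM, edgeR adjusted p = 0.20). Per length, Dis3 was the most abundant of these nucleases in wild-type cells, at 33.9 ± 2.31 RPKM, and Dis3l the least, at 4.17 ± 0.0919 RPKM.

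Skiv2l (ENSMUSG00000040356; chromosome 17, 34839228 to 34850210, minus strand), the helicase of the Ski complex, which feeds mRNA into the cytoplasmic exosome, had the largest rise of the 41 genes. It stood at 21.4 and 20.7 CPM in the wild-type and 37.8 and 38.7 CPM in the Smg6-deficient libraries. The rise was 1.82-fold (log2 fold change 0.86 with SE 0.086, edgeR adjusted p = 0.00073), many times the difference between replicates. Its scaffold partner Ttc37 was at 0.30 and did not pass (70.7 and 88.1 against 91.7 and 104 CPM, edgeR adjusted p = 0.098), with a gap between the wild-type libraries as in Cnot1 and Xrn1, and passed without wild-type replicate 2 (0.45, edgeR adjusted p = 0.0051), whereas leaving out wild-type replicate 1 gave 0.16 (edgeR adjusted p = 0.17).

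No-go decay releases ribosomes stalled on an mRNA, through Pelo, which resembles a termination factor, and the GTPase Hbs1l. Pelo (chromosome 13, 115088355 to 115090186, minus strand) fell from 36.9 and 38.2 to 27.95 and 27.96 CPM (log2 fold change -0.43 with SE 0.084, edgeR adjusted p = 0.0081). The call was lost on omitting either Smg6-deficient library (edgeR adjusted p = 0.078 and 0.076). Pelo shares 41.5% of its 50-base words with the overlapping gene model Gm49395 and 23.98% with the antisense gene Gm10734, neither of which had a count used here. Hbs1l stood at 157 and 156 against 154 and 149 CPM (-0.05, edgeR adjusted p = 0.66).

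Set side by side, the group medians ran from 0.58 for the 2 Ski complex genes, 0.48 for PAN and PARN and 0.46 for the 2 exonucleases of the 5′ end, through 0.19 for the nucleases of the 3′ end, 0.17 for CCR4-NOT, 0.16 for the exosome core and 0.11 for decapping, to -0.24 for both the LSM ring and no-go decay. The spread of a group's median between replicates, as an SD pooled over both genotypes, was 0.013 to 0.10 on the log2 scale. In some groups it was wider in the wild type. As deviations from each gene's mean, the exosome core medians were 0.02 and -0.18 in wild-type and 0.10 and 0.05 in Smg6-deficient libraries. Those of the 5′ exonucleases were -0.32 and -0.15 against 0.24 and 0.23. With groups of 2 to 8 genes, and with members of both signs in CCR4-NOT, decapping, the LSM ring, the exosome core and the nucleases of the 3′ end, these medians are descriptions and were not tested against each other.

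Gene length moved with the fold change. Over 20499 tested genes with an annotated exon length, the median log2 fold change was -0.14 in the shortest tertile, 0.03 in the middle tertile and 0.13 in the longest tertile. Over the 41 decay genes, the Spearman correlation of fold change and exon length was 0.31, a description over genes that share libraries and depth. The LSM ring had a median exon length of 2753 nt and the PAN and PARN genes one of 8472 nt. With a correction of each library for gene length, the median of CCR4-NOT went from 0.17 to 0.06 and that of decapping from 0.11 to -0.01. Those of PAN and PARN (0.48 to 0.39) and the Ski complex (0.58 to 0.48) moved by nearly as much, and that of the LSM ring (-0.24 to -0.25) by far less. Of the 18 calls, only that of Xrn2 was lost with this correction, and Lsm2, Dcp1b, Exosc1 and Exosc5 were gained, each in the direction it had without it (-0.25, -0.49, 0.32 and 0.46; edgeR adjusted p = 0.027, 0.025, 0.023 and 0.019).

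**Figure D4:**
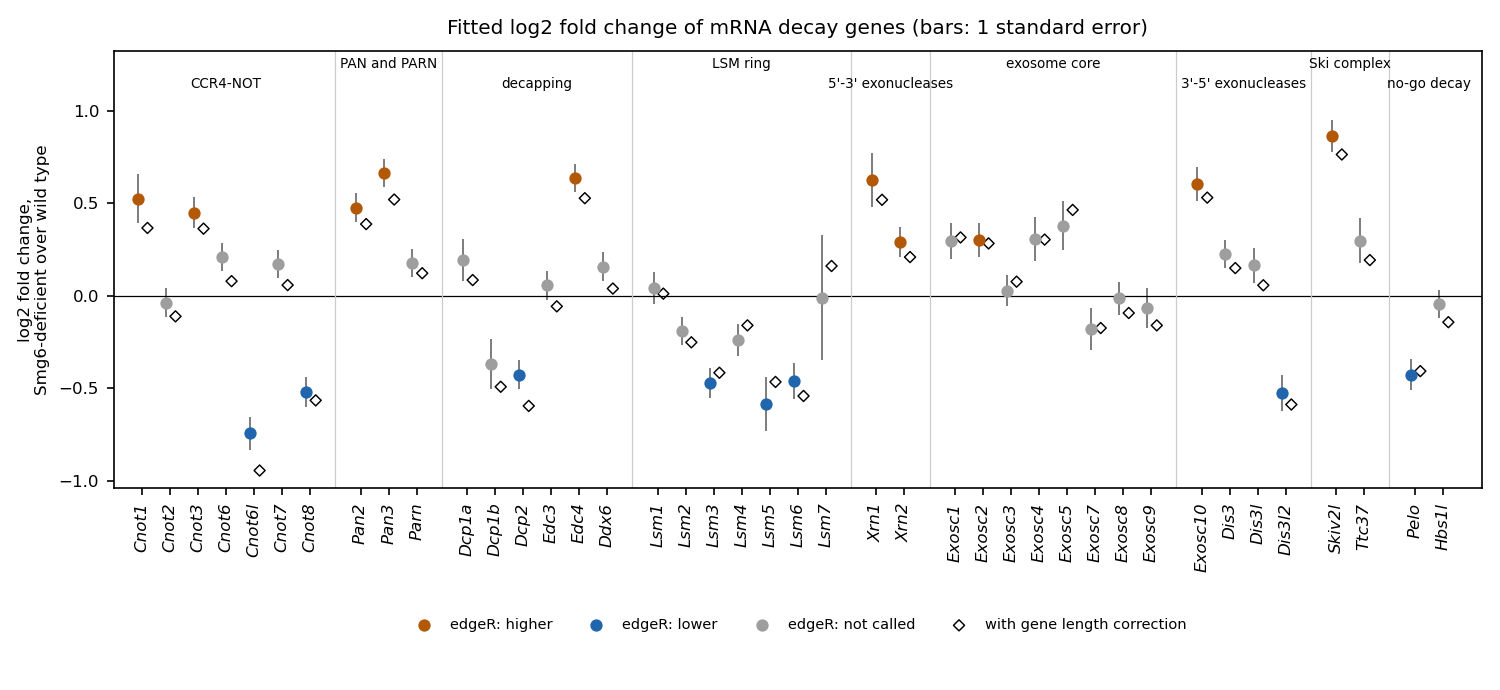
Fitted log2 fold change of each gene with 1 standard error, ordered by role; filled circles are the edgeR values, coloured by call, and open diamonds the values after the gene length correction. Diamonds lie below the circles for most genes, and Skiv2l (0.86) and Cnot6l (-0.74) mark the ends of the range.

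A further list of cofactors, regulators and surveillance factors of mRNA decay, outside the 41 genes, held 56 symbols, of which 55 were in the count tables and tested. Of these, 13 were higher (23.6%) and 8 lower (14.5%), with a median of -0.03, shares again near those of all tested genes. Among the rises with the smallest adjusted p were those of Gtpbp2, a GTPase that acts with Pelo on stalled ribosomes, from 14.9 and 15.5 to 32.1 and 34.3 CPM (log2 fold change 1.12 with SE 0.094, edgeR adjusted p = 0.00041), and of Ltn1, the ubiquitin ligase of ribosome quality control (0.71, edgeR adjusted p = 0.0013). The falls with the smallest adjusted p were those of Angel1, a relative of the Ccr4-type nucleases (-0.64, edgeR adjusted p = 0.0035), of C1d, a cofactor of Exosc10 (-0.51, edgeR adjusted p = 0.0069), and of Lsm8, which replaces Lsm1 in the nuclear ring (-0.44, edgeR adjusted p = 0.010). The call of C1d was lost when Smg6-deficient replicate 1 was left out (edgeR adjusted p = 0.057), and that of Lsm8 without either Smg6-deficient library (0.054 and 0.082). The number of lower genes in this list ran from 1 without Smg6-deficient replicate 1 and 3 without Smg6-deficient replicate 2 to 14 without wild-type replicate 1.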

How the data were processed

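Total RNA of 2 wild-type and 2 Smg6-deficient ES cell samples was extracted with TRIzol and prepared with an Illumina TruSeq v2 kit, which does not mark strand, and sequenced as single reads of 50 nt, per the labels' protocols. The submitters' processing notes name TopHat2 2.0.9 as a tool and mm10 as the genome build. No source used here gives the gene counter, the annotation, the strand setting or the treatment of reads with several alignments. The authors deposited a whole-number read count per Ensembl gene, used for all main tests. The authors also deposited RPKM values, used to compare levels between genes and for an alternative test. RPKM carries no scaling between libraries beyond its total.

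Genes kept by filterByExpr at a minimum count of 10 entered a test in edgeR 4.0.16 with TMM scaling (R 4.3.3; quasi-likelihood F test, genotype as the only term, 2 residual degrees of freedom); adjustment (Benjamini-Hochberg) ran over all 20895 tested genes, threshold 0.05. SE was taken as the size of the log2 fold change over the root of its F statistic. Log2 changes of 0.5, 1, 1.5 and 2 were set for 50 genes each in counts simulated for this comparison over 20633 genes. At 0.5 and 1 the test recovered 30 and 50, with 8 false calls. In the data 39.7% of all tested genes were called, and recovery with so large a share of changed genes was not tested. Replicates differed by more than sampling noise, with chi-square values of 69.6 (wild type) and 39.4 (Smg6-deficient) for each degree of freedom. Symbols, positions and transcripts were taken from GENCODE M21 on GRCm38, which is mm10. Shared 50-base words were counted between the principal transcript of each gene and all annotated transcripts of other genes on both strands. The length correction took a smooth curve of log ratio on the gene length implied by count and RPKM as an offset in each library.

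The genes, the lists and the tests were chosen with earlier results of these data known. Named in the text were every decay gene past the threshold, the most abundant gene of each role, the paralog pairs, Smg6 and, of the further list, the 3 smallest adjusted p in each direction, of which 1 is not reported here; remaining decay genes were added to account for all 41. Alternatives were DESeq2 1.42.0 size factors or Wald test, library size alone, no filter, limma-trend (limma 3.58.1) on RPKM in log2 with a pseudocount of 1 or 0.1, a block for replicate number, the length correction with and without the block, and leaving out each library; with 1 library left in a genotype, its spread is taken to equal that of the other.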

Additional observations from a re-analysis of the deposited data

How the results depend on the processing

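Of 533 values of the 41 decay genes under 13 alternatives, 472 kept their side of the threshold, 30 lost the call and 31 gained one. The sign turned in 21 of the 472, all of genes that did not pass (Cnot2, Edc3, Lsm1, Lsm7, Exosc3, Exosc8 and Exosc9), and in 0 called values. By limma-trend on RPKM with pseudocounts of 1 and 0.1, 6 decay genes were higher under either pseudocount (4 of those with an NMD transcript), 2700 and 2643 of all genes were higher, and of the further list 8 were higher and 5 lower under either. With the length correction, 13 of the further list were lower, and 15 when the block was added. With library size alone, 8 decay genes without an NMD transcript were lower. DESeq2 size factors, the DESeq2 Wald test and the omitted filter moved none of these counts by over 1.5 times. No scaling moved the median of all genes by over 0.1; the largest shift was -0.06, with library size alone.

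Leaving out 1 library at a time gave 7 to 15 higher and 2 to 12 lower decay genes, 2805 to 5578 higher and 2300 to 4899 lower genes among all tested, and 7 to 19 higher and 1 to 14 lower genes of the further list. Among decay genes with an NMD transcript it gave 5 to 10 higher and 1 to 4 lower, and among those without 2 to 5 higher and 1 to 8 lower. The lowest counts came without a Smg6-deficient library and the highest without a wild-type library. Either omission leaves 1 sample in a genotype, and the spread is then that of the other genotype. The cause of the difference was not tested.

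Group medians under library size alone were 0.12 for CCR4-NOT, 0.42 for PAN and PARN, 0.050 for decapping, 0.14 for the nucleases of the 3′ end and -0.29 for no-go decay. With the length correction they were 0.058 for CCR4-NOT, 0.39 for PAN and PARN, -0.0087 for decapping, 0.36 for the nucleases of the 5′ end, 0.10 for those of the 3′ end, 0.48 for the Ski complex and -0.27 for no-go decay, and with the block added 0.058, 0.39, -0.0090, 0.37, 0.10, 0.48 and -0.27 in the same order. On log2(RPKM + 1) and log2(RPKM + 0.1) they were 0.12 and 0.13 for CCR4-NOT, 0.41 and 0.43 for PAN and PARN, 0.14 and 0.15 for the 3′ nucleases and -0.27 and -0.28 for no-go decay, and on the first 0.46 for the Ski complex. Without 1 library they ran from 0.15 to 0.21 for CCR4-NOT, 0.42 to 0.53 for PAN and PARN, 0.050 to 0.13 for decapping and -0.25 to -0.22 for no-go decay. Smg6 passed with library size alone (-0.27), the length correction (-0.37, also with the block) and, over left-out libraries (-0.26 to -0.16), without wild-type replicate 1. The cause of these movements was not tested.

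The replicate numbers are shared by both genotypes, but nothing in the labels pairs the samples. Over 12344 genes the differences between replicates 1 and 2 correlated at 0.20 between the genotypes. With the replicate block, 14 decay genes were higher and 9 lower, Exosc1, Exosc4, Exosc5, Ttc37 and Lsm4 being gained and 0 calls lost, and 5074 genes were higher and 4613 lower among all tested. With 2 libraries per genotype, changes as small as those of most decay genes may not be detectable.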
